A study of Mus musculus with 2 samples.

Results

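The microRNA genes described here carry names from Mir6896 to Mir7092, a block of mouse names given mostly to hairpins in short or terminal stretches of introns. They were chosen by name alone, from the GENCODE M21 symbol of each gene identifier, and 198 of the 2202 counted genes belong to the block. The members cover 196 of the 197 numbers. No gene is called Mir6967, because the pair of genes that yield miR-6967 are listed as Gm27740 and Gm27775, and these had no sense read in either library.

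The counts come from microRNA sequencing, with inserts under 30 nt, of the gastrocnemius, the large calf muscle. The tissue was taken from male B6CASTF1/J mice at 4 days of age, the F1 cross of the C57BL/6 and CAST strains, and no treatment is named. The labels give 1 group of 2 libraries, called replicate 1 (animal 3) and replicate 2 (animal 4), from separate biosamples under a shared donor identifier. No other condition was sequenced in this group, so comparisons set the libraries against each other and a p-value measures departure from counting noise in them, not a difference between conditions.

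Most microRNAs are cut out of a long transcript by the nuclear enzyme Drosha and then trimmed by Dicer in the cytoplasm. A mirtron skips Drosha. Splicing releases a short intron, the branched intron is opened, and it folds into a hairpin that Dicer can use, so the ends of the hairpin are the splice sites of the host gene. In a tailed mirtron the hairpin reaches a splice site at only 1 end, and the remaining intron sequence has to be trimmed away. Mirtrons are generally expressed at low levels, and because each lies inside another gene it can be made only where that host gene is transcribed.

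The libraries held 4458853 and 3073086 sense reads assigned to microRNA genes, a 1.45-fold difference in depth, so that 1 read was worth 0.224 CPM (reads per 1000000 assigned reads) in the former and 0.325 CPM in the latter. The libraries did not look alike in the markers of the labelled tissue. The 9 skeletal muscle microRNAs all had reads in both libraries, but together they held 147279 CPM of replicate 1 and 4794 CPM of replicate 2. Mir206, restricted to skeletal muscle, had 652657 reads against 101, and the heart microRNA Mir208a had 59 against 29718. Without Mir206 the sum of the list ran the other way, at 906 and 4761 CPM. Most of that came from Mir499 (438 and 2809 CPM) and Mir208b (240 and 1412 CPM). Reads with more than 1 mapping place are set aside in the counts, so genes with several copies, such as Mir1a-1 and Mir1a-2, can be undercounted. By the test and threshold used for the members, 3 of the list were higher in replicate 2 (Mir208b, Mir486 and Mir499) and 3 lower (Mir133a-1, Mir133b and Mir206). Replicate 2 goes against its label in Mir206 and Mir208a, and the libraries are named throughout by their labels.

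Nearly every member ended at a splice site. The annotated hairpin had its 3′ end exactly on the last base of an intron, on the same strand, in 183 of 198 members (92.4%), and within 10 nt of it in 193. Among the 2004 other microRNA genes the exact match was found in 27 (1.35%). In the other name blocks it held for 8.47% of genes from Mir7093 upward, 3.29% of those from Mir3000 to Mir6895, 4.44% of those from Mir1000 to Mir2999 and 0.195% of those below Mir1000. The rule used the name and not the position, although such names were given mostly to introns of this kind.

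Most members had intron sequence upstream of the hairpin, as 5′-tailed mirtrons do. In 175 members only the 3′ end lay within 10 nt of an intron end, and the hairpin began a median of 512 nt into the intron. In 18 members both ends lay within 10 nt, and in 14 of them both ends matched exactly, so the hairpin was the whole intron. The introns of these 18 were 67 to 137 nt long, with a median of 84.0 nt. Only the 5′ end matched in 3 members (Mir6927 in Mllt6, Mir6936 in Sirt7 and Mir6977 in Ptprs), and neither end in 2 (Mir7025 in Pdgfra and Mir7036b in Add1). Every member overlapped an intron of a host gene on its own strand. The members lay in 193 hosts, of which 5 held a pair.

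**Figure D1:**
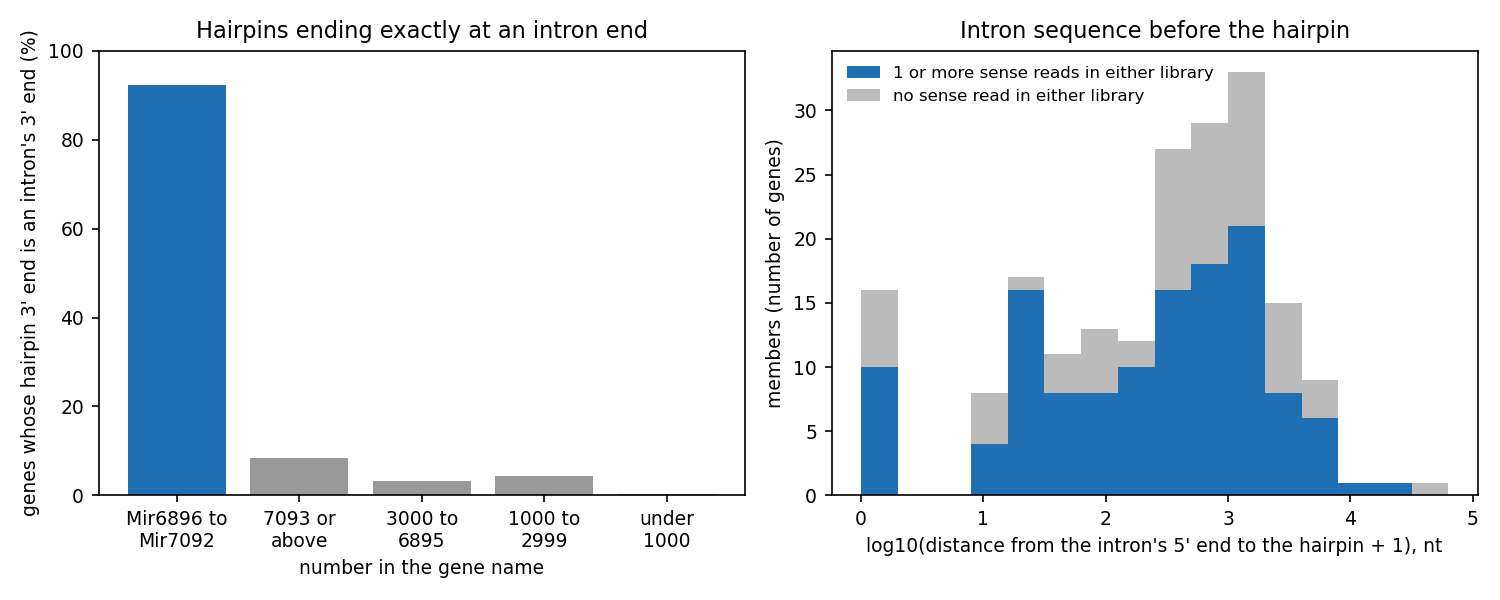
Left, the percentage of genes in each name block whose annotated hairpin ends exactly at the 3′ end of an intron on the same strand, 92.4% for Mir6896 to Mir7092 and at most 8.47% in the other numbered blocks. Right, the number of members by the distance from the intron's 5′ end to the hairpin, on a log10 scale with 1 added, for the 193 members whose 3′ end lies within 10 nt of an intron end (negative distances drawn at 0), with members that had a sense read in blue and those without in grey.

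The sequences show the splice sites that those positions imply, and are not separate support for them. RefSeq (GRCm38.p6, the assembly also called mm10) listed 182 of the 198 members by symbol, with 177 hairpins, all at the GENCODE coordinates, and 348 mature forms. Of the 177 hairpins, 164 (92.7%) end in AG, the letters of a 3′ splice site, against 71 of 791 hairpins of other genes (8.98%). Of the 11 listed hairpins that are a whole intron, 10 begin with GU, the 5′ splice site. The 5 hairpins that follow are shown because they include 3 whole introns with reads and the tailed members with the clearest differences. The capitals mark the first and last letters of the intron where the hairpin reaches them, and each is written 5′ to 3′.
Mir6944, intron of Dbn1, chr13:55477681-55477776, minus strand: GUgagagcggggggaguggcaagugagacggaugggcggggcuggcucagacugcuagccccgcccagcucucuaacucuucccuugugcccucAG
Mir6923, intron of Myh3, chr11:67099804-67099875, plus strand: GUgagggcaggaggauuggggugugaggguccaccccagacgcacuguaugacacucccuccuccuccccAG
Mir7091, intron of Dnase1l1, chrX:74274027-74274105, minus strand: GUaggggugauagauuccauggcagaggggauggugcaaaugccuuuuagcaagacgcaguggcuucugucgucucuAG
Mir6945, tailed, intron of Pdlim7, chr13:55507625-55507692, minus strand: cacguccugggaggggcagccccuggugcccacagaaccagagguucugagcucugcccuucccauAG
Mir7007, tailed, intron of Cpa3, chr3:20222290-20222359, minus strand: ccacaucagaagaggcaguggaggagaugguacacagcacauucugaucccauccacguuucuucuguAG

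The arms were uneven in base make-up, although in most members the 5p arm lies inside the intron and not at its 5′ end. The 174 listed 5p forms had a median of 44.7% G, against 27.3% in the 524 forms of other genes, and the 174 listed 3p forms had a median of 72.1% C or U, against 54.5% in 528. The 3p form ended at the last base of its hairpin in 126 of 169 members (74.6%), against 21.6% of other genes, and 136 of 174 member 3p forms end in AG. Members with and without reads had 43.5% and 46.9% G in the 5p forms and 71.4% and 72.7% C or U in the 3p forms. The 3p form ended with its hairpin in 78.4% of members with reads and 67.2% of those without, and it ended in AG in 81.0% and 72.4%. These differences were not tested. The mature forms of the members whose counts differed between the libraries are given next, with the seed, bases 2 to 8, in capitals. Each has a seed of its own within this set, and the deposited counts do not say which arm the reads came from.
miR-6944-5p: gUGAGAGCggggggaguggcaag
miR-6944-3p: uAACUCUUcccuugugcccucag
miR-6923-5p: gUGAGGGCaggaggauuggggugu
miR-6945-5p: uCCUGGGAggggcagccccugg
miR-6945-3p: uCUGAGCUcugcccuucccau
miR-7007-5p: uCAGAAGAggcaguggaggagau
miR-7007-3p: cCCAUCCAcguuucuucu
miR-7091-5p: gUAGGGGUgauagauuccauggc
miR-7091-3p: aGUGGCUUcugucgucucuag
miR-6994-5p: aCAAAGGUgggugaagccgguga
miR-6994-3p: aACGAUCUucuccgucuuugc
miR-7017-5p: aGAGGGUUgugagacuagggcugu
miR-7017-3p: aCCCUGCUccucucccuccag
miR-6900-5p: uGCCAGGAgaagccuagagccguc
miR-6900-3p: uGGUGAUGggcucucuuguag
miR-6934-5p: uUGGUGGAgacagcaagggugg
miR-6934-3p: aCCUCUGCuccugccccaccag
miR-7010-5p: cGGAAAGGauugggaaacuuga

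The members were widely detected and very weakly counted. At least 1 sense read was found for 110 of 198 members (55.6%) in replicate 1 and 92 (46.5%) in replicate 2. Of these, 71 had reads in both libraries, 39 in replicate 1 alone and 21 in replicate 2 alone, which leaves 67 with none. A count of 0 allows a level of up to 0.673 CPM (replicate 1) or 0.976 CPM (replicate 2), so absence was not shown. Over both libraries, 47 members had 1 or 2 reads, 59 had 3 to 9, and 25 had 10 or more, and Mir6944 alone passed 100.

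All 198 members together held 633 reads of replicate 1, a share of 0.0142% (exact Clopper-Pearson 95% interval 0.0131 to 0.0153%), and 340 reads of replicate 2, a share of 0.0111% (0.00992 to 0.0123%). Without Mir6944 the summed levels were 107 and 102 CPM. The top member gave 24.6% of the members' reads in replicate 1 (Mir6944) and 8.24% in replicate 2 (Mir7083). Every read was on the strand of the host gene, which was picked on the member's own strand. The members had 0 antisense reads in either library, and 71 of the 2202 microRNA genes of the whole table had any.

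Set beside other name blocks, the members often had a read and rarely had many. At least 1 read in either library was found for 66.2% of the members and for 64.0% of genes below Mir1000, but 10 reads in all for 12.6% and 55.4%. For the genes from Mir7093 upward the shares were 49.2% and 10.2%, and for those from Mir3000 to Mir6895 they were 39.9% and 15.6%. They were 56.7% and 30.0% from Mir1000 to Mir2999. Over all 2202 genes they were 32.7% and 18.6%, which includes 1039 genes with names of other forms, at 5.10% and 2.21%. The median total of the genes with any read was 4.00 for the members and 1073 for genes below Mir1000.

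**Figure D2:**
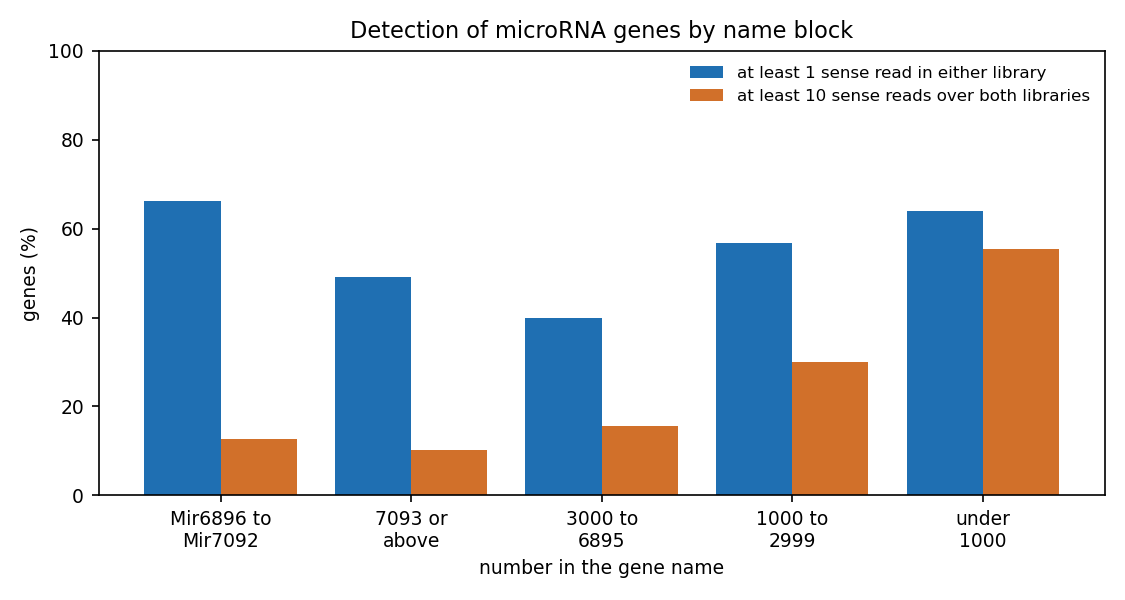
Percentage of microRNA genes with at least 1 sense read in either library (blue) or at least 10 over both libraries (orange), for each numbered block of gene names. The members, at the left, stand at 66.2% and 12.6%, and genes below Mir1000 at 64.0% and 55.4%.

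The 25 members with 10 or more reads were compared between the libraries, relative to edgeR library sizes (TMM, the trimmed mean of M values). The threshold was an adjusted p under 0.05 in the exact binomial test (Benjamini-Hochberg over all 410 genes tested) together with a log2 ratio of at least 1 in size. Of the 25, 7 were lower in replicate 2 and 3 were higher, which is 40.0%. Over all 410 genes 53.7% were past the threshold, 36.1% lower and 17.6% higher, so the members' share was not above that background. Among the 138 other tested genes with totals no higher than the highest member, the share was 42.8%, with 33 lower and 26 higher. The members' median log2 ratio, replicate 2 over replicate 1, was −0.55, against −0.33 over all genes and −0.07 over those 138. The sign of the members' median turned with the scaling. DESeq2 size factors put it at −0.27 and a scale of total reads at 0.08, where all genes stood at −0.05 and 0.29. Only 2 animals stand behind these ratios. The edgeR exact test, with the spread estimated from the same pair, called 0 of the 25, with 0 at an unadjusted p under 0.05. Over all 410 genes it also called 0, Mir206 among them, and 28 had an unadjusted p under 0.05. The spread was taken from the same difference that was tested, so this test cannot decide for the members.

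**Figure D3:**
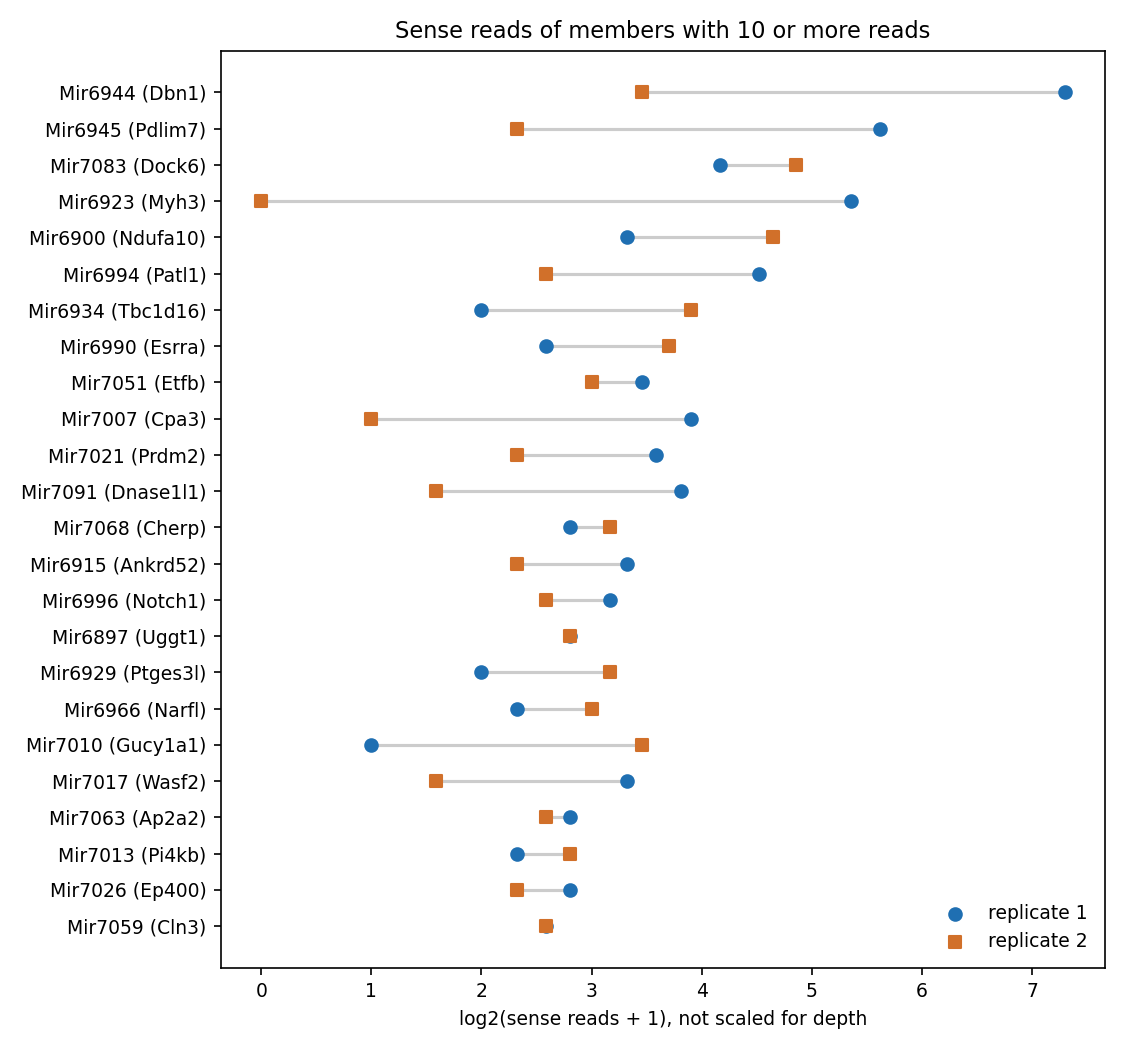
Sense reads of 24 of the 25 members with 10 or more reads, as log2 of the count plus 1 and not scaled for depth, with the host gene in brackets. Replicate 1 is a blue circle and replicate 2 an orange square, and the widest gaps are those of Mir6923 (40 and 0 reads) and Mir6944 (156 and 10).

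Among the members lower in replicate 2, those with the most reads lie in Dbn1, Pdlim7 and Myh3. Myh3 encodes the embryonic myosin heavy chain of developing skeletal muscle. Its whole-intron member Mir6923 (ENSMUSG00000098855.1) had 40 reads in replicate 1 and 0 in replicate 2, or 8.97 CPM against at most 0.976 CPM. Counted against a limit of 3 reads, it was at least 14.2-fold lower in replicate 2 relative to TMM sizes (adjusted p = 5.26e-13, exact binomial test). Of the 9 listed skeletal muscle microRNAs, 3 were lower in that library, with log2 ratios of −12.73 (Mir206), −5.37 (Mir133b) and −1.13 (Mir133a-1). Another 3 were higher, at 2.05 (Mir499), 1.93 (Mir208b) and 1.59 (Mir486). The sum of the list, 4794 CPM against 147279 CPM in replicate 1, was lower through Mir206. The part of these microRNAs in the result was not tested. In a bulk tissue library fewer cells of a type and less RNA per cell cannot be told apart.

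Dbn1 encodes drebrin, which binds and bundles actin filaments. Mir6944 (ENSMUSG00000098341.1), the 96 nt intron printed first among the hairpins, had 156 reads in replicate 1 and 10 in replicate 2, or 35.0 and 3.25 CPM. Its log2 ratio was −3.92 (95% counting interval −5.14 to −3.14; adjusted p = 9.7e-37, exact binomial test), and it was the most counted member over both libraries.

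Pdlim7 encodes a scaffold protein that attaches to actin and carries LIM domains. Mir6945 (ENSMUSG00000099096.1) lies at the end of a 239 nt intron of this gene, after a tail of 171 nt. It had 48 reads in replicate 1 and 4 in replicate 2, or 10.8 and 1.30 CPM, a log2 ratio of −3.38 (−5.61 to −2.23; adjusted p = 3.48e-11, exact binomial test). The hairpins of Mir6944 and Mir6945 are 29.8 kb apart on chromosome 13, on the same strand but in different hosts. Mir6945 also overlaps an annotated exon of another Pdlim7 transcript, so its reads cannot be assigned to the intron alone.

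The remaining members lower in replicate 2 had 11 to 27 reads. Mir6994, in Patl1, a factor of mRNA decapping, had 22 and 5 reads and a log2 ratio of −2.03 (−3.98 to −0.79). Mir7007, in Cpa3, the carboxypeptidase stored in mast cell granules, had 14 reads and 1 read and was 7.98-fold lower relative to TMM sizes (log2 interval −9.30 to −1.18). Of the 4 white blood cell microRNAs, Mir155 and Mir150 were higher in replicate 2, Mir223 was lower and Mir142 did not pass the threshold, with summed levels of 538 and 2934 CPM, and their part in the result was not tested. Mir7091, a whole intron of the DNase-like gene Dnase1l1, had 13 and 2 reads and a log2 ratio of −2.31 (−5.98 to −0.65). Adjusted p-values of these members by the exact binomial test were 0.00110, 0.00058 and 0.00482. Mir7017, in the actin-nucleating factor gene Wasf2, had 9 and 2 reads and a log2 ratio of −1.83 (−5.51 to 0.01) at an adjusted p of 0.0441 in the exact binomial test. Mir7017 lost its call when DESeq2 size factors or total reads set the scale, at log2 ratios of −1.55 and −1.20.

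The 3 members higher in replicate 2 lie in Ndufa10, Tbc1d16 and Gucy1a1. Mir6900 (ENSMUSG00000098288.1), in the gene of the respiratory complex I subunit Ndufa10, had 9 reads in replicate 1 and 24 in replicate 2, or 2.02 and 7.81 CPM. Its log2 ratio was 1.23 (0.17 to 2.62; adjusted p = 0.0203, exact binomial test). Mir6934, in Tbc1d16, a regulator of Rab GTPases, had 3 and 14 reads and a log2 ratio of 1.82 (0.29 to 4.57; adjusted p = 0.0183, exact binomial test). Mir7010, in Gucy1a1, a subunit of the nitric oxide receptor guanylate cyclase, had 1 and 10 reads and a log2 ratio of 2.37 (0.42 to 8.67; adjusted p = 0.0167, exact binomial test). The smooth muscle microRNAs Mir143 and Mir145a, from a tissue in which this cyclase is known to act, together held 21681 CPM of replicate 1 and 49013 CPM of replicate 2. Neither passed the threshold relative to TMM sizes, and their part in the result was not tested. The Mir7010 hairpin runs 1 nt past the intron end and overlaps an annotated Gucy1a1 exon.

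**Figure D4:**
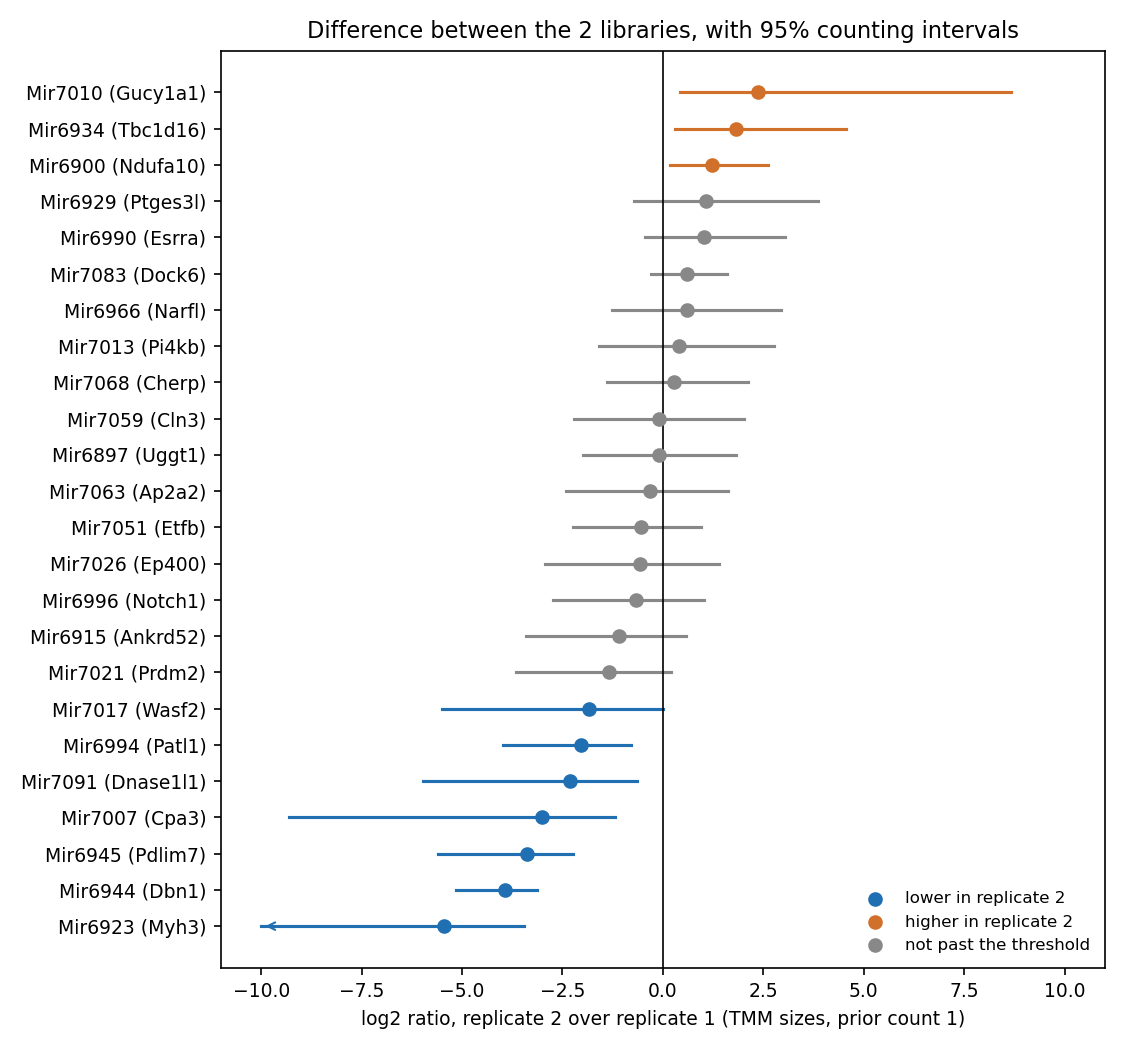
Log2 ratio of replicate 2 over replicate 1 for 24 of the 25 members, with 95% counting intervals as lines and the host gene in brackets. Blue members were lower and orange members higher in replicate 2, grey ones were not past the threshold, and the interval of Mir6923, with 0 reads in replicate 2, has no lower end.

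Of the 9 members with at least 17 reads in total, 3 did not pass the threshold. Mir6990 overlaps Esrra, the gene of a nuclear receptor that controls mitochondrial genes, and had 5 and 12 reads, with a log2 ratio of 1.03 (−0.44 to 3.03). Mir7051, in Etfb, an electron transfer protein of fatty acid oxidation, had 10 and 7 reads and a log2 ratio of −0.55 (−2.23 to 0.94). The third most counted member, Mir7083, lies in Dock6, the gene of a guanine nucleotide exchange factor, and had 17 and 28 reads with a log2 ratio of 0.60 (−0.29 to 1.59). With total reads as the scale, Mir7083 and Mir6990 were past the threshold at log2 ratios of 1.23 and 1.65. That scale moved the median of all genes by 0.63.

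The other 12 members with 10 or more reads had totals of 10 to 15 and log2 ratios from −1.35 to 1.08. Mir7021 in the histone methyltransferase gene Prdm2 had 11 and 4 reads. Mir6929 in Ptges3l had 3 and 8 reads, the highest ratio of these 12. Mir6897, in the glycoprotein folding sensor gene Uggt1, had 6 reads in each library, and Mir7059 in the lysosomal gene Cln3 had 5 in each. At these depths an interval spans several log2 units (−2.21 to 2.03 for Mir7059). Only large differences could pass the threshold, and a ratio short of it does not show that the libraries were alike.

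Reads were found for 10 of the 18 members with both ends within 10 nt of intron ends (55.6%) and for 117 of the 175 with only the 3′ end there (66.9%). At 10 or more reads the order was the opposite, with 4 of 18 (22.2%) and 21 of 175 (12.0%). Of the 14 members that were exactly a whole intron, 8 had reads and 4 had 10 or more. These differences were not tested. The 18 held 233 reads of replicate 1 and 28 of replicate 2, of which Mir6944 alone gave 156 and 10. Mir7068, a whole intron of Cherp, had 6 and 8 reads, and Mir7018, in the basement membrane gene Hspg2 (perlecan), had 5 and 3. The 8 with no read were Mir6970, Mir6974, Mir6981, Mir7032, Mir7034, Mir7058, Mir7060 and Mir7088. Of all members, 41 overlapped an annotated exon on the same strand, 30 of these with reads and 7 with 10 or more. These 7 include Mir6945, Mir6966, Mir6990, Mir7010, Mir7051 and Mir7068, whose reads cannot be assigned to the intron alone.

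Older mirtrons gave a scale for these counts. Mir877, a whole intron of Abcf1, had 146 and 101 reads, or 32.7 and 32.9 CPM, with a log2 ratio of −0.62 relative to TMM sizes, and was not past the threshold. Mir702, in Plod3, had 64 and 23 reads and was lower in replicate 2 at −1.53 (−2.32 to −0.86; adjusted p = 4.35e-06, exact binomial test). Mir1224, a whole intron of Vwa5b2, had 0 and 1 reads. Mir6944 in replicate 1, at 35.0 CPM, stood beside Mir877, and in replicate 2 no member exceeded 9.11 CPM (Mir7083). Mir320 and Mir484, which are made without Drosha but not by splicing, had 508 and 735 CPM in replicate 1 and 1465 and 1853 CPM in replicate 2.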

How the data were processed

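The files the authors deposited hold raw counts of reads over microRNA genes, against mm10 and GENCODE M21 per the text files deposited beside them. The count columns are not named there, and were read as unstranded, sense and antisense from their layout. Neither the aligner nor the trimming is given in the sources used here. That layout is the gene count output of STAR, where reads with more than 1 mapping place are set aside, 35.7% of replicate 1 and 45.1% of replicate 2. Lines naming no gene stayed out of library sizes. In the sense column they also held 9.97% and 8.60% unmapped reads and 2.05% and 3.83% outside microRNA genes. Columns of other samples numbered 0.

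CPM and shares are relative to all assigned sense reads. Intervals (95%) and the limit of 3 counts cover counting error only, since PCR copies of a molecule count as separate reads. Whether CAST alleles changed the mapping was not tested. Log2 ratios used a prior count of 1 and TMM sizes (edgeR 4.0.16, R 4.3.3), computed on the genes with at least 10 reads in total. Those genes were given a two-sided exact binomial test. Intron and exon positions came from GENCODE M21, taking the intron whose ends lay nearest to the hairpin. Shared stretches of 22 nt were searched among the annotated microRNAs. Members named are those with at least 10 reads (the values of 1 are not reported here), and any others were picked with their values in view. The members, lists and tests were chosen with earlier results of these data known. Alternatives used DESeq2 1.42.0 size factors, total reads, other minimum counts, the unstranded column, the edgeR exact test, other distances to an intron end and each library alone. Tests ran in Python 3.11.15 with scipy 1.17.1.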

Additional observations from a re-analysis of the deposited data

How the results depend on the processing

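The 131 members detected in either library came to 73 with at least 3 reads in a library and 13 with at least 10, and each library alone gave 92 to 110. Their mean share of reads, 0.0126%, ran from 0.0111 to 0.0142% over the single libraries and was 0.0158% in the unstranded column, whose total is smaller. Of the 10 members past the threshold, 5 were left with a minimum of 20 reads (1 higher, 4 lower) and 1 with a minimum of 100 (0 higher, 1 lower), since 6 and 1 members were then tested. The edgeR exact test with common dispersion called 0 (0 higher, 0 lower), as it did over all 410 genes. With total reads 5 were higher and 6 lower, and with DESeq2 size factors 3 and 6. Over all genes, higher calls were 32.7% of calls under TMM, 44.3% under DESeq2 size factors and 54.0% under total reads, which moved the median of all genes by 0.28 and 0.63. Mir6923, Mir6944, Mir6945, Mir6994, Mir7007 and Mir7091 were lower and Mir6900, Mir6934 and Mir7010 higher under TMM, under DESeq2 size factors, with total reads and in the unstranded column. Mir7017 also lost its call in the unstranded column (−1.65) and with a minimum of 1 read. Hairpins with both ends near intron ends numbered 32 within 20 nt, against 18 within 10 nt. No paired analysis was possible because there is a single group.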

Other observations

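The members mostly have seeds of their own. Their 348 listed mature forms hold 321 distinct seeds, and 39 of these seeds also occur in a mature form of another gene. Among the members with 10 or more reads, 5 have a form that shares its seed with another gene outside the block. Of these, miR-6915-5p shares its seed, GGUCAGA, with miR-540-3p, whose gene Mir540 lies in the imprinted Dlk1-Dio3 domain, and miR-6966-5p shares its seed with miR-542-5p. The genes of these 2 pairs were far apart in abundance, with 13 reads in total for Mir6915 and 32188 for Mir540, and 11 for Mir6966 and 10512 for Mir542. In the other 3 the member was the more counted gene. Mir6945 had 52 reads and the gene of miR-3474, which shares the seed of miR-6945-5p, had 17. The genes of miR-5106 and miR-7683-3p, which share the seeds of miR-6897-3p and miR-7010-5p, had 0 reads, against 12 for Mir6897 and 11 for Mir7010. Within the block, 23 seeds occur in more than 1 form. One of them, CACCCUG, is shared by miR-7018-3p, miR-7023-3p and miR-7068-3p, and the first and last of these come from whole introns with reads.

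Detection was also set against the length of intron before the hairpin. Reads were found for 33 of 43 members with a tail of 11 to 100 nt (76.7%), 47 of 72 with a tail above that and up to 1000 nt (65.3%) and 37 of 60 with a longer tail (61.7%). At 10 or more reads the order was another, with 2 of 43, 12 of 72 and 7 of 60. These groups were set after the data were seen and the difference was not tested. Of the 5 hosts with a pair of members, Ankrd52 had 9 reads in replicate 1 and 4 in replicate 2, all from Mir6915. Skiv2l had 0 and 6 reads, all from Mir6971. The other members of these pairs, Mir6914 and Mir6970, had no read. Srebf1 had reads from both of its pair, 0 and 2 for Mir6921 and 1 and 0 for Mir6922.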
